A study of Homo sapiens with 6 samples.

Results

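Antisense RNAs named after the gene they face, with symbols ending in -AS1, were followed here in human definitive endoderm in which one such RNA, GATA6-AS1, had been knocked down. The table lists 58830 rows, of which 1030 have a symbol ending in -AS1, and 215 of these were listed at 0 in every library. Members were the -AS1 rows with a mean of at least 2 TPM (a transcript level scaled to gene length and to the total of its library) over the 6 libraries, with GATA6-AS1 left out. This gave 220 members. The row whose symbol stands before -AS1 served as the sense partner and was present for 217 members, but not for JHDM1D-AS1, RPARP-AS1 and HOXB-AS1. The mean level over both groups chose the members, and the difference between the groups did not.

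HuES8, a human embryonic stem cell line, was differentiated to definitive endoderm, the germ layer that gives rise to gut, liver and pancreas. The knockdown group (KD) is 3 libraries of cells with GATA6-AS1 knocked down, and the wild-type group (DE) is 3 libraries of cells with wild-type genotype. Both groups were grown in DMEM-F12 with 0.2% BSA and antibiotics, with Activin A at 100 ng/mL throughout, joined on day 1 by CHIR at 2.5 µM and given alone over the following 2 days. How the RNA was knocked down, what the wild-type cells received in its place and whether the knockdown line is 1 clone are not stated in the labels. The labels also do not say whether the libraries of a group came from separate cultures, so p-values reflect only how far these libraries differ, and that spread may be technical.

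An antisense RNA is read from the strand opposite a gene, over part of it or from a start close to its promoter. Some act on the gene they face, by bringing or keeping away chromatin factors, by being transcribed through it, or by pairing with its transcript, and many have no known function. In definitive endoderm GATA6 and GATA6-AS1 form such a pair, GATA6 being a zinc finger transcription factor of endoderm.

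As a check of the labels, GATA6-AS1 was at 180, 163 and 126 TPM in KD libraries, against 389, 421 and 314 TPM in DE libraries, a log2 change of −1.26 (limma adjusted p = 0.0128). GATA6 itself stood at 251, 211 and 191 TPM in KD libraries, against 367, 385 and 286 TPM in DE libraries, with a log2 change of −0.66 that missed the threshold (limma adjusted p = 0.0648, and 0.005 with the replicate numbers as a block). Of 12 definitive endoderm markers 5 fell and none rose (11 lower with the block), with summed levels of 18600 to 20400 TPM in KD libraries and 25600 to 29400 TPM in DE libraries. CER1 made up most of that sum, at 16120 to 17650 TPM in KD libraries and 22060 to 25180 TPM in DE libraries. Of 8 pluripotent stem cell markers 6 rose (7 with the block), with summed levels of 3230 to 3730 TPM in KD libraries and 2170 to 2800 TPM in DE libraries. Of 4 tested mesoderm markers 2 rose and 1 fell, with summed levels of 141 to 148 TPM in KD libraries and 92.5 to 114 TPM in DE libraries, and MSGN1 and MESP1 stayed under 1 TPM. KDR made up most of that sum, at 118.6 to 125.6 TPM in KD libraries and 73.5 to 94.1 TPM in DE libraries. The mesoderm marker that fell was HAND1, at 0.353 to 1.07 TPM in KD libraries and 3.68 to 4.72 TPM in DE libraries. HAND1 was tested through its DE libraries, so its place in this count supports no difference. TBX5, the partner of a member, is on that mesoderm list. Of 2 tested trophoblast and amnion markers 1 fell (2 with the block; summed levels 21 to 27.1 TPM in KD libraries and 46.8 to 52.7 TPM in DE libraries; TFAP2A, CDX2 and KRT7 under 1 TPM), of 4 tested fibroblast markers 1 rose (98.2 to 110 TPM in KD libraries and 77 to 96.1 TPM in DE libraries; COL3A1 and DCN under 1 TPM), and none of 3 neuroectoderm markers passed (162 to 184 TPM in KD libraries and 116 to 160 TPM in DE libraries; SOX1 under 1 TPM). The 1 tested visceral endoderm marker fell (summed levels 1.83 to 2.19 TPM in KD libraries and 5.32 to 7.71 TPM in DE libraries), with AFP, TTR and APOB under 1 TPM. NES made up most of the neuroectoderm sum. The fibroblast marker that rose was THY1, at 37.75 to 44.96 TPM in KD libraries and 11.46 to 14.55 TPM in DE libraries. COL1A1 and PDGFRA had negative log2 changes, of −0.306 and −0.348, and COL1A2 one of 0.099, none past the threshold. The part all these markers have in the changes below was not tested, and in bulk RNA fewer cells of a type and less RNA per cell cannot be told apart. Mitochondrial genes took 36.2% of all TPM in KD library 3 and 38% in DE library 3, against 24.6% to 28.8% in the other 4 libraries.

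The starts of 6 antisense genes are shown because the results turn on them: 5 changed in the knockdown, and GATA2-AS1 belongs to a pair whose changes differed. FEZF1-AS1 and SUCLA2-AS1 also changed but had no start among the RefSeq sequences used, so they are not shown. Each sequence is RefSeq's on GRCh38.p14, 5′ to 3′ on the strand of the antisense gene, with 250 bases before the start in lower case and the first 50 transcribed bases in capitals. The windows are chr1:63322409-63322708 on the minus strand for FOXD3-AS1, chr5:116447248-116447547 on the plus strand for SEMA6A-AS1 and chr12:114407945-114408244 on the plus strand for TBX5-AS1. They are chr3:190120714-190121013 on the plus strand for P3H2-AS1, chr2:115161294-115161593 on the minus strand for DPP10-AS1 and chr3:128488953-128489252 on the plus strand for GATA2-AS1.
FOXD3-AS1: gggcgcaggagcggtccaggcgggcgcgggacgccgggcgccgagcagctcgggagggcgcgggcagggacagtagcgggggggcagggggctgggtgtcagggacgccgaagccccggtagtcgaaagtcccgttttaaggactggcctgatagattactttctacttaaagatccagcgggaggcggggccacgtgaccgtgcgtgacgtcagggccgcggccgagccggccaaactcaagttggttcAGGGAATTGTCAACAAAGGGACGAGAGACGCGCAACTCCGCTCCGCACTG
SEMA6A-AS1: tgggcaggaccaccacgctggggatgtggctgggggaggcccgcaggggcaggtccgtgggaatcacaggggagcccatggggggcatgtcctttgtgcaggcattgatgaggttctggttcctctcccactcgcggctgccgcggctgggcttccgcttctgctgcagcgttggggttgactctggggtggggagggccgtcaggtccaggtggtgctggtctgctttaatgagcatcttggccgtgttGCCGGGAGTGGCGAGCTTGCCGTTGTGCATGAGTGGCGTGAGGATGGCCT
TBX5-AS1: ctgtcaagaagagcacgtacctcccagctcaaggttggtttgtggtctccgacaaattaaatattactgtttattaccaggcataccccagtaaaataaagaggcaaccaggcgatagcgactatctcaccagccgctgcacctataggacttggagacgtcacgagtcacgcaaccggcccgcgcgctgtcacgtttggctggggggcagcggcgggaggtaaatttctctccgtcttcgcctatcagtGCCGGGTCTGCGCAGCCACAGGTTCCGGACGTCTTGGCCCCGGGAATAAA
P3H2-AS1: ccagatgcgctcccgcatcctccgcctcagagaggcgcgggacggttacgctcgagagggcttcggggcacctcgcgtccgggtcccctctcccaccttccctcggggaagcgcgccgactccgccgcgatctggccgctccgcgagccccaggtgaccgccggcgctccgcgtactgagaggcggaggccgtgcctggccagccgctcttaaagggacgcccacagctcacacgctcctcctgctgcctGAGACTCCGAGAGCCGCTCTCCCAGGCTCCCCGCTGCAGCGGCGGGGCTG
DPP10-AS1: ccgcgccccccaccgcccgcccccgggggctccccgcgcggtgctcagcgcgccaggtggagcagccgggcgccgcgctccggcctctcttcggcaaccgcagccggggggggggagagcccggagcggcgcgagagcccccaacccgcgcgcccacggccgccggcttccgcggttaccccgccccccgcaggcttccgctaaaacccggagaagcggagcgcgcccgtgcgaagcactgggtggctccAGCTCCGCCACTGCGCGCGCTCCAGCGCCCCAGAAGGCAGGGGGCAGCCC
GATA2-AS1: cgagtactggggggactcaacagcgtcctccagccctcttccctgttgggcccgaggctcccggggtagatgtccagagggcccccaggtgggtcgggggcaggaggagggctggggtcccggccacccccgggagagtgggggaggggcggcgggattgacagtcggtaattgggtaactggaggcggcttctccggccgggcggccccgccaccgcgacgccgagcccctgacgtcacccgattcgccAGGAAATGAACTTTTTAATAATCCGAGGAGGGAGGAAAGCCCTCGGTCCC
RefSeq held 159 such windows for 134 of the 220 members. Members' windows were rich in G and C, with a median of 65% against 58.7% over all 35116 windows. They held a median of 23 CG pairs, against 14 over all windows, and 83.6% held at least 10 of them, against 56.4% of all windows. In the 6 windows shown, G and C made up between 55.3% (TBX5-AS1) and 80% (DPP10-AS1), and CG pairs numbered between 15 (SEMA6A-AS1) and 44 (DPP10-AS1). The letters AGATAA, a spelling that GATA factors bind, searched on both strands, stood in none of the 6 windows, in 5.03% of the members' windows, in 6.16% of those of sense partners and in 10.3% of all windows. Other spellings were not searched, and the windows of FOXD3-AS1 and TBX5-AS1 hold the letters GATA within other spellings. The shares were not adjusted for the higher G and C content of the members' windows.

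Most members were scarce RNAs, and most stood below the gene they face. The members' mean level had a median of 4.58 TPM and ran from 2.03 to 175 TPM. Means of at least 10 TPM were reached by 44 members and of at least 50 TPM by 4. The antisense row stood above its sense partner in 53 of 217 pairs and below it in 164, and the median antisense share of a pair's summed TPM was 19.9%. Just inside the limit of 2 TPM lay FUT8-AS1 (2.03 TPM), H1FX-AS1 (2.03 TPM) and DNAJB5-AS1 (2.1 TPM), and just outside it STX18-AS1 (1.996 TPM), RUNDC3A-AS1 (1.96 TPM) and ZNF337-AS1 (1.95 TPM). All members together made up 1884, 1899 and 1635 TPM in KD libraries, against 1900, 2037 and 1631 TPM in DE libraries, so the groups overlapped and library 3 was lowest in each.

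The highest member was LRRC75A-AS1, a host of small nucleolar RNAs, with 184, 188 and 138 TPM in KD libraries, against 194, 199 and 145 TPM in DE libraries. It made up 99% of the summed level of its pair, since LRRC75A stood at 1.25 to 2.24 TPM. Next came OIP5-AS1, also known as Cyrano, with 105, 94.9 and 75.2 TPM in KD libraries and 91.8, 108 and 72.4 TPM in DE libraries. FGD5-AS1 stood at 51.3 to 61 TPM in KD libraries and 50.1 to 67.9 TPM in DE libraries, and THAP9-AS1 at 40.8 to 47.5 TPM in KD libraries and 35.9 to 46.3 TPM in DE libraries. The groups overlapped for all 4, and their log2 changes, between −0.11 and 0.11, were smaller than their standard errors of 0.12 to 0.18. Of the 5 highest members, FOXD3-AS1 was the one whose groups stood apart.

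Changes in the knockdown were measured as differences of log2(TPM + 1), KD minus DE, with limma's moderated test over 17711 genes and a threshold of 0.05 on the adjusted p. All 220 members reached the 1 TPM in 3 libraries that a test required, and the added 1 shrinks the changes of low rows. In the knockdown 5 of 220 members rose, SEMA6A-AS1, TBX5-AS1, FOXD3-AS1, FEZF1-AS1 and SUCLA2-AS1, and 2 fell, P3H2-AS1 and DPP10-AS1. Those 2.27% higher and 0.909% lower stand beside 1.77% higher and 1.5% lower of all genes tested, and the 3.18% called in either direction beside 3.27% of all genes. With the replicate numbers as a block, 8 members passed as higher and 16 as lower, which is 10.9% of members beside 12.5% of all genes (5.88% higher and 6.62% lower). The share of members called was no larger than the background in either fit. FEZF1-AS1 counts among the rises although it became a member through its KD libraries. Without 1 library, 1 (DE 1 or KD 2), 2 (KD 1), 3 (DE 2) or 4 (DE 3 or KD 3) members passed as higher, and 0 (any one KD library), 1 (DE 1 or DE 2) or 4 (DE 3) as lower. SEMA6A-AS1 was the member that passed in each of these fits. Quantile normalization and median-ratio scaling each gave 7 higher and 11 lower, and TPM without mitochondrial genes gave 6 and 8, so the balance of rises and falls depended on the scaling. With no filter on low values the calls of FEZF1-AS1, SUCLA2-AS1, P3H2-AS1 and DPP10-AS1 were lost.

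**Figure D1:**
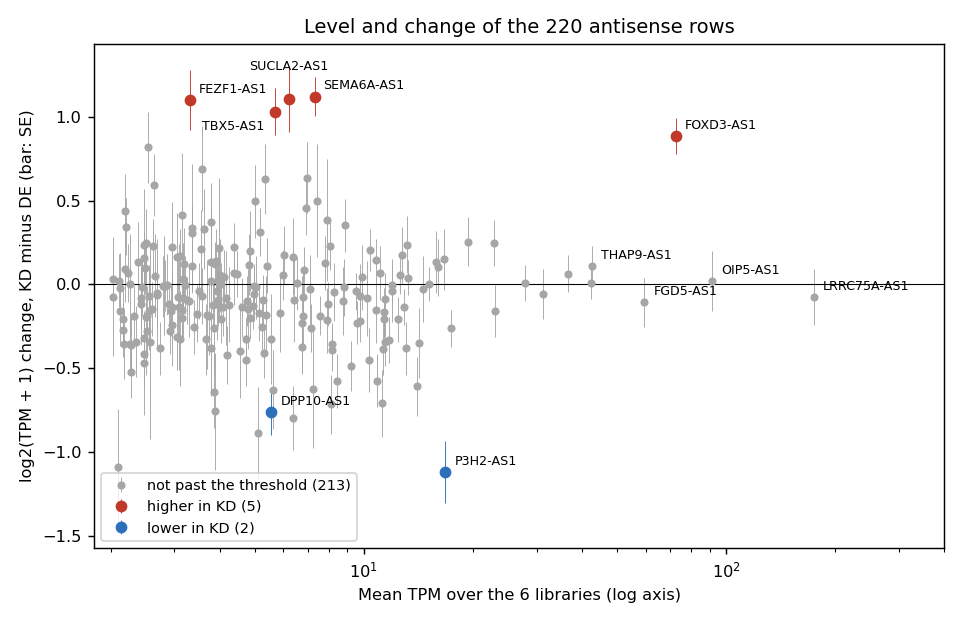
Each point is 1 of the 220 antisense rows, with its mean level over the 6 libraries on a log axis (TPM) and its KD minus DE change of log2(TPM + 1) with its standard error. The 5 rows past the threshold as higher lie between 0.89 and 1.12, the 2 lower ones at −0.76 and −1.12, and 194 of 220 rows lie within 0.5 of no change.

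Members as a whole lay slightly lower in the knockdown. The median log2 change was −0.08, with quartiles of −0.22 and 0.1, against a median of −0.01 over all genes tested, with quartiles of −0.16 and 0.14. Of the members 137 had a negative change and 83 a positive one, so 62.3% were negative, against 51% of all genes. The KD and DE libraries did not overlap for 37 members that were lower in KD (16.8%, against 10.7% of all genes) and for 16 that were higher (7.27%, against 10.1%). All these counts include rows that became members through the group where they were higher. Such rows are DNAJB5-AS1 and POT1-AS1 among the lower ones and FEZF1-AS1, SERTAD4-AS1 and WNT5A-AS1 among the higher ones. The place of such rows in the counts supports no difference. Leaving out 1 library moved both medians. The members' median was −0.16 without DE library 3 (all genes −0.1), 0 without DE library 2 (all genes 0.06) and 0.01 without KD library 3 (all genes 0.06).

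SEMA6A-AS1 lies within SEMA6A, a transmembrane semaphorin that guides axons and migrating cells, on chromosome 5 from 116447547 to 116508276 on the plus strand (GENCODE 29, GRCh38). It stood at 10.2, 10.2 and 10.7 TPM in KD libraries, against 4.15, 4.63 and 3.94 TPM in DE libraries. All KD libraries stood above all DE libraries, and the log2 change was 1.12 ± 0.12 (SE; limma adjusted p = 0.00574). SEMA6A rose with it, at 187, 204 and 206 TPM in KD libraries, against 90.5, 96.9 and 91 TPM in DE libraries (log2 change 1.09, limma adjusted p = 0.00277). The antisense minus sense difference was 0.03, with a 95% interval of −0.32 to 0.38. The exons of both rows share 268 bases. If the sense row's mean level also lay on those bases and were all counted for the antisense row, it would amount to 18.9 TPM in KD libraries and 8.79 TPM in DE libraries, or 189% of the row's level. The row held less than that, so these conditions did not hold in full. What part of its level came from its partner cannot be told here. SEMA6A-AS1 kept its call without any one library and under every other setting tried.

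TBX5-AS1 starts head to head with TBX5, a T-box transcription factor of heart and forelimb development, on chromosome 12 from 114408191 to 114412831 on the plus strand, and their exons overlap by 252 bases at the starts. It stood at 8.65, 8.44 and 6.92 TPM in KD libraries, against 3.81, 3.28 and 3.11 TPM in DE libraries, and no library of one group reached the other (log2 change 1.03 ± 0.14 SE, limma adjusted p = 0.0139). TBX5 stood at 15.7, 16.6 and 15.6 TPM in KD libraries, against 7.18, 7.82 and 7.13 TPM in DE libraries (log2 change 1.02, limma adjusted p = 0.00572). Both rows rose by nearly the same amount, with an antisense minus sense difference of 0.01 and a 95% interval of −0.35 to 0.37. The level on the shared bases would amount to 12.3% of the antisense row's. Its call was lost without DE library 1 or 2 or KD library 1 or 2.

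FOXD3-AS1 runs past the start of FOXD3, a forkhead factor of pluripotent cells and the neural crest, on the minus strand of chromosome 1, from 63320884 to 63324441. GENCODE's outermost start lies inside FOXD3, unlike the RefSeq start shown above. Its levels were 91.8, 92.8 and 98.1 TPM in KD libraries, against 45.1, 49.9 and 57 TPM in DE libraries, with a wide gap between the groups (log2 change 0.89 ± 0.11 SE, limma adjusted p = 0.0105). FOXD3, the scarcer of the pair, had 15.5, 11.8 and 10.6 TPM in KD libraries, against 4.96, 6.72 and 3.19 TPM in DE libraries (log2 change 1.22, limma adjusted p = 0.0465). The antisense row made up 89.2% of the pair's level, and 179 shared exonic bases would amount to 1.8% of it. The antisense minus sense difference of −0.33 had a 95% interval of −0.97 to 0.31. The call of FOXD3-AS1 was lost without DE library 1 (adjusted p = 0.0629) or KD library 2 (adjusted p = 0.0708).

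FEZF1-AS1 rose beside FEZF1, a zinc finger repressor of forebrain and olfactory development, and lies on chromosome 7 from 122303658 to 122310077 on the plus strand. It had 5.14, 4.77 and 4.63 TPM in KD libraries, against 1.48, 2.4 and 1.4 TPM in DE libraries, so the lowest KD library stood above the highest DE library (log2 change 1.1 ± 0.18 SE, limma adjusted p = 0.0227). FEZF1 had 8.62, 6.76 and 7.11 TPM in KD libraries, against 6.05, 4.53 and 5.1 TPM in DE libraries, also without overlap, and missed the threshold (log2 change 0.45, limma adjusted p = 0.197, and 0.0306 with the block). The antisense minus sense difference was 0.65 with a 95% interval of 0.15 to 1.15, and missed the threshold over all pairs (limma adjusted p = 0.174). The exons of both rows share 611 bases, and the sense row's level on them would amount to 35.5% of the antisense row's. The call of FEZF1-AS1 was lost without DE library 1 or any one KD library. Its mean of 1.76 TPM in DE libraries lay under the limit of 2 TPM, so it became a member through its KD libraries. For that reason its place in the counts of rises supports no difference.

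SUCLA2-AS1 lies in an intron of SUCLA2, which encodes a subunit of the citric acid cycle enzyme succinyl-CoA ligase, on chromosome 13 from 48001389 to 48002552 on the plus strand, and shares no exonic base with it. It had 8.03, 11.7 and 6.95 TPM in KD libraries, against 3.8, 3.67 and 3.09 TPM in DE libraries, all KD libraries above all DE libraries (log2 change 1.1 ± 0.19 SE, limma adjusted p = 0.03). SUCLA2 overlapped between groups, at 53.7 to 72.9 TPM in KD libraries and 41.8 to 62.6 TPM in DE libraries (log2 change 0.26, limma adjusted p = 0.645, and 0.0434 with the block). The antisense minus sense difference of 0.85, the most positive of the 204 pairs, had a 95% interval of 0.4 to 1.29 and a limma adjusted p of 0.0879. The call of SUCLA2-AS1 was lost without any one library but KD library 3.

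P3H2-AS1 fell. It starts inside P3H2, a prolyl 3-hydroxylase that modifies collagen chains, runs away from it on chromosome 3 from 190120964 to 190144846 on the plus strand, and shares no exonic base with it. Its levels were 9.96, 10.5 and 9.66 TPM in KD libraries, against 18.2, 30.7 and 21.6 TPM in DE libraries (log2 change −1.12 ± 0.18 SE, limma adjusted p = 0.0248). The KD libraries were close together and all lay below the DE libraries, which spread more widely. P3H2 had 205, 185 and 148 TPM in KD libraries, against 257, 294 and 203 TPM in DE libraries, with the highest KD library just above the lowest DE library (log2 change −0.48, limma adjusted p = 0.223, and 0.0127 with the block). The call of P3H2-AS1 was lost without any one KD library.

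DPP10-AS1 also fell. It lies within the span of DPP10, an accessory subunit of voltage-gated potassium channels, on the minus strand of chromosome 2, from 115130935 to 115161343, with no shared exonic base. It had 4.1, 3.86 and 3.61 TPM in KD libraries, against 7.45, 6.26 and 8.09 TPM in DE libraries, without overlap (log2 change −0.76 ± 0.14 SE, limma adjusted p = 0.0325). DPP10 had 5.8, 5.19 and 4.13 TPM in KD libraries, against 7.64, 8.25 and 5.37 TPM in DE libraries, with overlap (log2 change −0.41, limma adjusted p = 0.365). The call of DPP10-AS1 was lost without any one of the 6 libraries.

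**Figure D2:**
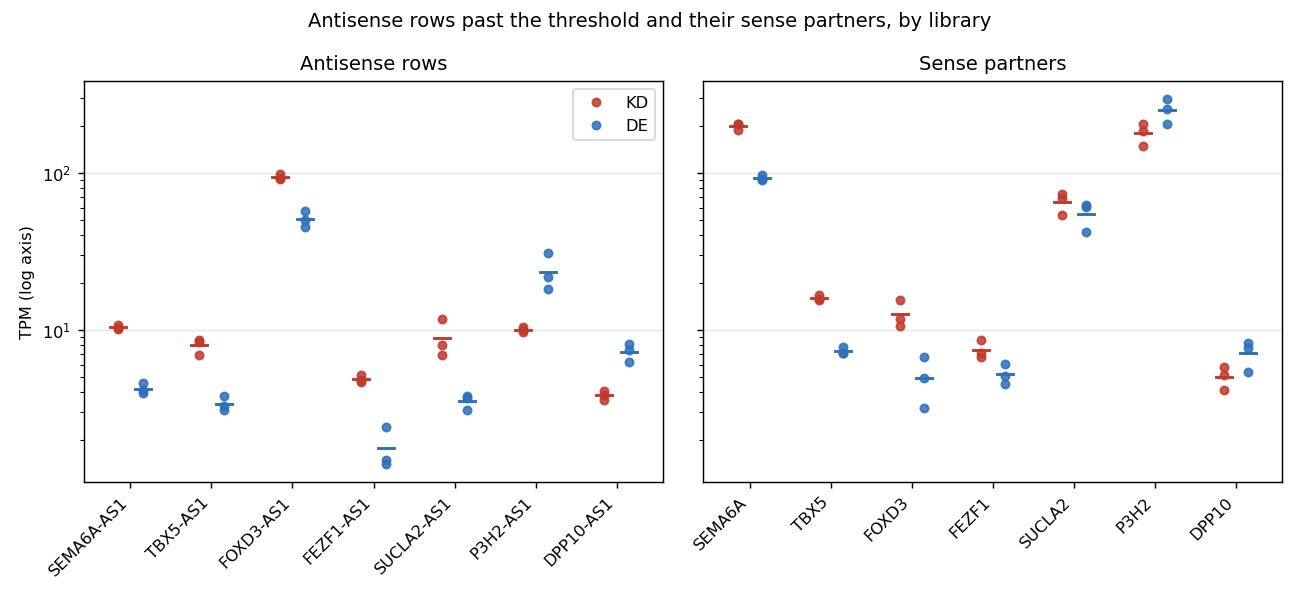
Levels in TPM on a log axis of the 7 antisense rows past the threshold (left) and their sense partners (right), with 1 point per library, a bar at the mean of 3 libraries, and KD drawn left of DE. No antisense row overlaps between KD and DE, while SUCLA2, P3H2 and DPP10 overlap in the sense panel.

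Beyond these 7, the largest changes without overlap between the groups are values that missed the threshold. Among higher ones, SERTAD4-AS1 stood at 3.18, 3.67 and 3.57 TPM in KD libraries, against 1.67, 2.17 and 0.925 TPM in DE libraries (log2 change 0.82, limma adjusted p = 0.0978, and 0.0419 with the block). LHX5-AS1, beside a LIM homeobox factor of the forebrain, had 6.77 to 10.9 TPM in KD libraries and 3.88 to 5.93 TPM in DE libraries (0.64, limma adjusted p = 0.191, and 0.016 with the block). UNC5B-AS1, within the gene of a netrin receptor, had 5.52 to 8.69 TPM in KD libraries and 3.29 to 5.07 TPM in DE libraries (0.63, limma adjusted p = 0.193, and 0.0162 with the block). ALG13-AS1 (0.69) and WNT5A-AS1 (0.59) passed in neither fit. Except for ALG13 and WNT5A, the sense partners of these 5 rose past the threshold, as given with the sense rows. SERTAD4-AS1 and WNT5A-AS1 had means of 1.6 and 1.9 TPM in DE libraries, under the limit of 2 TPM, and became members through their KD libraries.

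Among lower ones, GDNF-AS1, beside a ligand of the receptor RET, had 7.19, 5.86 and 4.72 TPM in KD libraries, against 12.2, 9.81 and 9.05 TPM in DE libraries (log2 change −0.72, limma adjusted p = 0.0817, and 0.00666 with the block). USP46-AS1, which starts next to a deubiquitinase gene, had 9.48, 8.64 and 6.61 TPM in KD libraries, against 15.9, 16.4 and 10.5 TPM in DE libraries (−0.71, limma adjusted p = 0.127, and 0.00663 with the block). MNX1-AS1, next to a homeobox gene of motor neurons and pancreas, had 2.38 to 3.07 TPM in KD libraries and 3.27 to 6.14 TPM in DE libraries (−0.64, limma adjusted p = 0.202, and 0.0434 with the block). TSPEAR-AS1 had 3.68 to 4.67 TPM in KD libraries and 6.84 to 10.9 TPM in DE libraries (−0.8, limma adjusted p = 0.0749, and 0.0138 with the block). DNAJB5-AS1, a row just inside the limit, had 0.205 to 1.98 TPM in KD libraries and 2.5 to 4.34 TPM in DE libraries (−1.09, limma adjusted p = 0.177, and 0.0232 with the block). Every KD library of DNAJB5-AS1 lay under 2 TPM, so it became a member through its DE libraries. Its passing with the block therefore supports no difference. All 5 stood lower in each KD library than in any DE library.

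Grouped by what the sense gene is known for, the rows beside developmental transcription factors held 3 of the 5 rises. Of these 16 members 3 rose, FOXD3-AS1, FEZF1-AS1 and TBX5-AS1, and none fell, beside 1.77% higher and 1.5% lower of all genes. FEZF1-AS1 was a member through its KD libraries, so its rise adds no support to this count. With the block 4 passed as higher and 1 as lower, LHX5-AS1 joining the higher ones and MNX1-AS1 being the lower one, beside 5.88% and 6.62% of all genes. A negative change was seen in 11 of the 16, the median was −0.1, and changes ran from −0.64 (MNX1-AS1) to 1.1 (FEZF1-AS1). Of the 12 tested sense partners in this group, 5 rose and none fell, beside the same 1.77% and 1.5%, with a median change of 0.25. The list was made by hand with the results known, so these counts describe its members only. In signalling and axon guidance, 1 of 14 rose (SEMA6A-AS1), with a median of −0.04 and a range of −0.72 to 1.12, and of the 14 sense partners 3 rose and 1 fell. With the block 2 of these members passed as higher, SEMA6A-AS1 and UNC5B-AS1, and 3 as lower, SEMA3B-AS1, GDNF-AS1 and MAP3K14-AS1. Of 8 members beside genes of extracellular matrix and adhesion, 1 fell (P3H2-AS1), with a median of −0.04.

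In 4 other groups no member passed the threshold. None of the 18 rows beside genes of RNA processing and translation passed, with changes from −0.58 to 0.33 and a median of −0.03. None of 16 passed beside genes of chromatin and genome maintenance (−0.36 to 0.33, median 0.04), none of 13 beside zinc finger genes (−0.42 to 0.35, median −0.02) and none of 9 beside genes of ubiquitin and the proteasome (−0.71 to 0.5, median −0.09). With the block, 1 row passed as lower in each of the RNA processing and ubiquitin groups, NUP50-AS1 and USP46-AS1, beside 6.62% of all genes. Of 14 members beside genes of mitochondria and metabolism, 1 rose (SUCLA2-AS1), beside 1.77% of all genes, and the median was 0.01. All these lists were made by hand, and no difference between them was tested.

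The sense partners served as context. Both rows could be tested in 204 pairs, and of those sense rows 10 rose and 2 fell, which is 5.88% beside 3.27% of all genes. With the block 20 passed as higher and 21 as lower, or 20.1% beside 12.5% of all genes. Median-ratio scaling gave 16 higher and 16 lower, quantile normalization 15 and 16, and TPM without mitochondrial genes 18 and 14. Without 1 library, 1 (KD 2), 2 (DE 1 or KD 1), 4 (KD 3), 6 (DE 2) or 7 (DE 3) sense rows passed as higher, and 4 as lower without DE 3 and 0 in the other 5 of these fits. Apart from FOXD3, SEMA6A and TBX5, those that passed as higher were SERTAD4, ID2, GATA2, TRAF3IP2, UNC5B, LHX5 and MMP24, and GDNF was among those that fell. MMP24 reached 1 TPM in its KD libraries alone and was tested only through them, so its place in this count supports no difference.

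SERTAD4 had 18.5, 20.1 and 17 TPM in KD libraries, against 9, 9.52 and 7.67 TPM in DE libraries (log2 change 1.01, limma adjusted p = 0.0106). UNC5B had 45.7, 47.3 and 42.1 TPM in KD libraries, against 27.6, 28.4 and 23.1 TPM in DE libraries (0.75, limma adjusted p = 0.0191). LHX5 had 3.86, 3.14 and 3.17 TPM in KD libraries, against 1.52, 1.65 and 1.34 TPM in DE libraries (0.81, limma adjusted p = 0.04). For these 3 the antisense row had a change of the same sign and like size, as the values above show, with antisense minus sense differences between −0.19 and −0.12. The exons of SERTAD4-AS1 and SERTAD4 share 174 bases. The sense row's level on them would amount to 93.4% of the antisense row's, so how much of its rise came from its partner cannot be told. For LHX5-AS1 the figure would be 4.7%, and UNC5B-AS1 shares no exonic base with UNC5B.

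GDNF had 6.85, 6.14 and 7.47 TPM in KD libraries, against 10.6, 11.4 and 11.1 TPM in DE libraries (−0.62, limma adjusted p = 0.0389), beside −0.72 in GDNF-AS1. ID2, an inhibitor of helix-loop-helix factors and a target of BMP signalling, had 41.4, 40.7 and 38.9 TPM in KD libraries, against 29.2, 29 and 26.3 TPM in DE libraries (0.51, limma adjusted p = 0.0368). ID2-AS1 held 4.02 to 4.05 TPM in KD libraries and 3.76 to 4.41 TPM in DE libraries, a change of 0 with a standard error of 0.13. TRAF3IP2, an adaptor of interleukin-17 signalling, had 14.3, 15.2 and 16.9 TPM in KD libraries, against 9.04, 10.8 and 10.1 TPM in DE libraries (0.58, limma adjusted p = 0.0493), and TRAF3IP2-AS1 overlapped between groups with a change of −0.01. The ID2 and TRAF3IP2 rows had lower antisense to sense ratios in every KD library than in any DE library, with limma adjusted p of 0.156 and 0.181 for the difference.

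Within pairs, the antisense and the sense row had changes of the same sign more often than of opposite signs. Of 204 pairs, 48 had both changes positive and 79 both negative, so 127 (62.3%) shared a sign and 76 did not. In the remaining pair, RTCA, the sense row had no change to 3 decimals. Across these pairs the antisense and sense changes had a Pearson correlation of 0.58 and a Spearman correlation of 0.46, as a description, since all pairs share the same 6 libraries and their scaling. Over the 188 pairs with neither row called, the correlations were 0.43 and 0.37. In 3 pairs both rows were called, SEMA6A, TBX5 and FOXD3, and both rose in each, which is 1.47% of the 204 beside 0.857% of all 350 pairs of a tested row and the tested row its symbol names. In 4 pairs the antisense row alone was called, and in 9 the sense row alone.

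With the block, both rows were called in 15 of the 204 pairs, or 7.35%, beside 5.43% of the 350, which include the 204. In all 15 both rows had the same sign, 8 higher and 7 lower, and of the 4 further pairs among the 350 with both rows called, 1 had opposite signs. Higher were both rows of FOXD3, SERTAD4, SEMA6A, FEZF1, UNC5B, LHX5, TBX5 and SUCLA2, and lower were both rows of SEMA3B, P3H2, GDNF, MANEA, WDR86, DNAJB5 and RASSF8. Among the lower ones, SEMA3B-AS1 had 12.1, 9.09 and 11.4 TPM in KD libraries, against 20.7, 17.1 and 13.7 TPM in DE libraries, and SEMA3B, a secreted semaphorin, had 5.29, 5.24 and 4.08 TPM in KD libraries, against 7.32, 8.02 and 6.79 TPM in DE libraries. Of the 15 pairs, 9 share exonic bases. FEZF1-AS1 and SERTAD4-AS1 became members through their KD libraries, and DNAJB5-AS1 through its DE libraries. The place of these pairs among the 15 supports no difference.

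**Figure D3:**
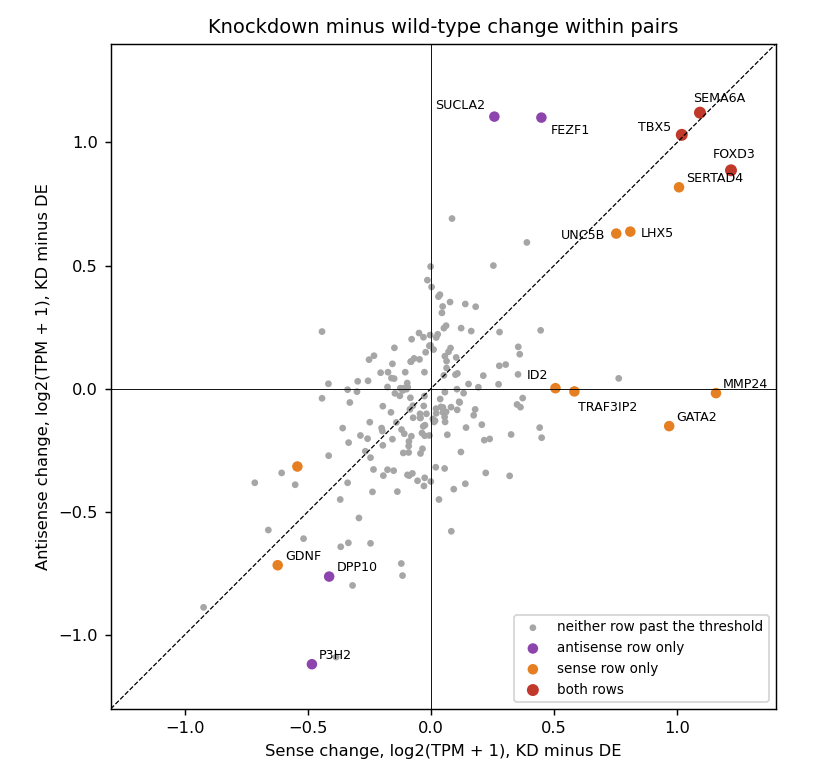
Each point is 1 of 204 pairs, with the KD minus DE change of log2(TPM + 1) of the sense row across and of the antisense row up, and the dashed line marks equal changes. The pairs with both rows called (SEMA6A, TBX5 and FOXD3) lie near that line at the upper right, while MMP24 and GATA2 lie to the right with an antisense change close to 0.

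The arrangement of the pairs was read from GENCODE 29 on GRCh38, to which 191 members matched. Exons of both genes shared bases in 127 of 220 members, with a median of 221 shared bases or 10.5% of the antisense exons. The genes overlapped without a shared exonic base in 33, started within 1000 bases of each other on opposite strands without overlap in 27 (median gap 111 bases, range 1 to 846), and 31 pairs were not matched. FOXD2-AS1 lay farther from its partner, and KCNJ6-AS1 was annotated on the strand of its partner. Whether counting used strand is not stated, so reads from shared exonic bases cannot be told apart.

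Pairs with and without shared exonic bases both held more pairs of like sign than of opposite sign. In the 27 divergent pairs 20 shared a sign, with correlations of 0.61 (Pearson) and 0.64 (Spearman) across pairs. In 29 pairs that overlapped without shared exonic bases 17 shared a sign (0.46 and 0.43), and in 120 pairs with shared exonic bases 69 did (0.66 and 0.41). In the 28 tested pairs with no matched annotation 21 did (0.46 and 0.4). Among those 120, the level that the sense row's mean would put on the shared bases was a median of 34.6% of the antisense row's own level. It was above the antisense row's whole level in 41 pairs, such as JMJD1C-AS1 at 556%. There the full amount cannot have been counted for the antisense row. In these 41 pairs the correlations were 0.56 and 0.25, with Pearson's at 0.18 without SEMA6A. In the 30 pairs where it was under 10% they were 0.75 and 0.47. No difference between these classes was tested.

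Few pairs had changes that differed past the threshold. The antisense minus sense difference of the changes was within 0.5 of 0 in 183 of 204 pairs, with a median of −0.06. Most single changes were that small too, as in 194 of 220 members. A small difference therefore does not show that both rows of a pair changed alike. Tested with limma over all 350 pairs, 2 of the 204 passed the threshold, GATA2 and MMP24, or 0.98% beside 1.14% of the 350 (0.286% higher and 0.857% lower). With the block 1 of the 204 passed, MMP24, beside 0.571% of the 350, in each direction 0.286%. MMP24 entered the tests through its KD libraries alone, since no DE library reached 1 TPM, so neither its own call nor that of its pair supports a difference, in either fit. Leaving it aside, 1 pair passed, GATA2, and none with the block. At an unadjusted p under 0.05 there were 23 member pairs. The ratio of antisense to sense did not overlap between groups in 28 pairs with lower ratios in KD (13.7%, against 13.4% of the 350) and in 15 with higher ones (7.35%, against 6.86%).

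GATA2 is a transcription factor of blood and endothelial development, and GATA2-AS1 starts within it, on chromosome 3 from 128489212 to 128502348 on the plus strand, with no shared exonic base. GATA2 had 7.24, 8.2 and 7.33 TPM in KD libraries, against 3.35, 4.12 and 2.78 TPM in DE libraries (log2 change 0.97 ± 0.15 SE, limma adjusted p = 0.0209). GATA2-AS1 had 3.42, 3.3 and 2.11 TPM in KD libraries, against 3.31, 3.89 and 2.85 TPM in DE libraries, and these overlapped (−0.15 ± 0.19 SE, limma adjusted p = 0.845). On the log2(TPM + 1) scale the antisense row stood 0.9, 1.1 and 1.42 below its partner in KD libraries, and within 0.07 of it in all DE libraries. The difference of −1.12 had a 95% interval of −1.51 to −0.73 (limma adjusted p = 0.0173). It missed the threshold with the block (limma adjusted p = 0.0632), without DE library 1 or 2 or KD library 2, and without library 3 of both groups (limma adjusted p = 0.101).

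MMP24 encodes a membrane-bound matrix metalloproteinase. It stood at 2.33, 2.5 and 2.05 TPM in KD libraries, against 0.348, 0.424 and 0.666 TPM in DE libraries (log2 change 1.16 ± 0.18 SE, limma adjusted p = 0.0201). MMP24-AS1 stood at 9.24, 10.1 and 6.94 TPM in KD libraries, against 8.37, 10.4 and 7.78 TPM in DE libraries, with overlap and a change of −0.02 ± 0.17 SE. The difference was −1.18 with a 95% interval of −1.6 to −0.76 (limma adjusted p = 0.0173, and 0.0241 with the block). It missed the threshold without DE library 1 or 2 or any one KD library, with limma adjusted p from 0.0621 to 0.0768. For both pairs the exact permutation test of the 3 against 3 ratios gave p = 0.1, the smallest it can give.

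Other pairs at either end missed the threshold. On the positive side, VPS9D1 had a difference of 0.67 (limma adjusted p = 0.11), between those of SUCLA2 and FEZF1. VPS9D1-AS1 had 7.39, 10.2 and 8.82 TPM in KD libraries, against 7.97, 7.2 and 6.71 TPM in DE libraries, and VPS9D1 had 7.61, 7.52 and 6.14 TPM in KD libraries, against 10, 10.5 and 9.3 TPM in DE libraries. The antisense row had a change of 0.23 and the sense row of −0.44, and the ratio did not overlap between groups. ALG13 (0.61) and CFAP58 (0.5) followed, both with overlapping ratios. On the negative side, B3GALT5, a galactosyltransferase that makes glycolipid antigens of stem cells, had 3.27, 3.21 and 2.86 TPM in KD libraries, against 1.33, 1.78 and 1.19 TPM in DE libraries (0.76, limma adjusted p = 0.0565), while B3GALT5-AS1 had a change of 0.04. Its difference was −0.72 (limma adjusted p = 0.0879). JMJD1C, a putative histone demethylase, had a difference of −0.67 (limma adjusted p = 0.0879), with the antisense row at −0.35 and the sense row at 0.32. DNAJB5 had a difference of −0.7 (limma adjusted p = 0.345), with overlapping ratios.

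**Figure D4:**
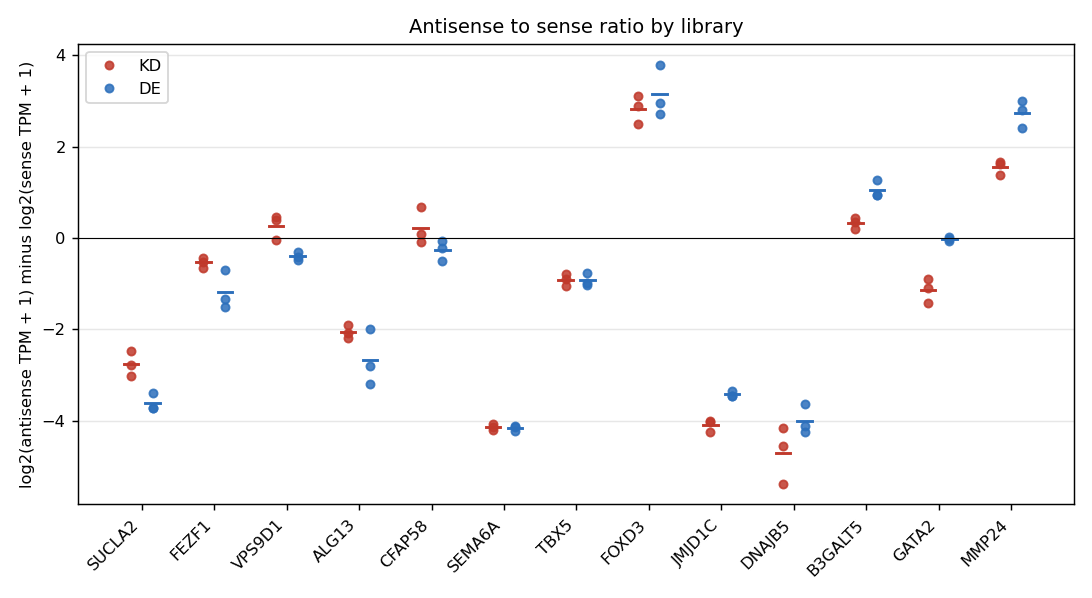
Log2(antisense TPM + 1) minus log2(sense TPM + 1) for 13 pairs named by the sense gene, with 1 point per library, a bar at the mean of 3 libraries, and KD drawn left of DE. The ratio of GATA2 and of MMP24 is lower in all KD libraries than in any DE library, and SEMA6A and TBX5 keep nearly the same ratio in KD and DE libraries.

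Many members rested on few reads. Estimated from the steps of low values, the libraries held 18636049, 21521142 and 24510592 reads in KD and 23757170, 22221997 and 18985402 reads in DE. A member had a median of 65 estimated reads per library, and 49 of the 191 members with a matched length had fewer than 20 reads in at least 1 library. Named rows among these include ALG13-AS1, with 5 to 7 estimated reads in KD libraries and 2 to 5 in DE libraries. WNT5A-AS1 had 8 to 17 in KD and 5 to 8 in DE libraries, and SERTAD4-AS1 18 to 29 and 6 to 14. SUCLA2-AS1, which was called, had 25 to 42 in KD and 11 to 15 in DE libraries.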

How the data were processed

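Total RNA of 6 libraries was sequenced, 3 per group. The authors deposited 1 table of TPM, with 1 column per library. Per the submitters' processing notes, the build was GRCh38 and the tools included featureCounts, DESeq2 and HISAT2 2.1.0, with no step named for any of them. The sources used here state neither annotation release nor strand setting, so reads that overlapping genes share could not be told apart.

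Tested were genes that reached 1 TPM in 3 or more libraries, on log2(TPM + 1) with limma 3.58.1 in R 4.3.3 (group as term, eBayes with trend, 2-sided), adjusted by Benjamini-Hochberg over all genes, threshold 0.05. Differences within pairs were fitted likewise on the log2 ratio and adjusted over all 350 pairs. Scripts were tested on simulated data.

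Members, lists and tests were chosen with earlier results of these data known. Named members were the 5 of highest mean, those past the threshold, the 5 largest rises and falls without overlap, the 5 pair differences at each end, those beside the limit, and those whose partner passed; NUP50-AS1, MAP3K14-AS1 and the pairs called with the block were named after their values were seen. One pair that the rule names is not reported here.

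TPM keep no depth. Reads were estimated from TPM times GENCODE 29 exon length for 37138 rows, where 88.3% to 89% of low values (under 50 reads) lay within 0.02 of a whole number. Deviations of same-numbered KD and DE libraries from their group means correlated at 0.11, 0.14 and 0.35, all over 0.1, so a further fit took the numbers as a block of pairs. The main fit, its intervals and the permutation test took no account of them. The pairing rests on these data, not on a label, and KD 1 correlated with DE 2 at 0.12. Alternatives are other pseudocounts, filters, scalings, variance models, thresholds and left-out libraries. Tables and figures were made in Python 3.11.15 (matplotlib 3.10.9, scipy 1.17.1, pandas 2.3.3, numpy 2.4.6).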

Additional observations from a re-analysis of the deposited data

How the results depend on the processing

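Counts are given as members higher and lower, then sense partners higher and lower, then all genes higher and lower. Against 5 and 2, 10 and 2, 314 and 265, the replicate block gave 8 and 16, 20 and 21, 1042 and 1173. Quantile normalization gave 11 members lower, 16 sense partners lower, and 860 and 875 genes. Median-ratio scaling gave 11 members lower, 16 and 16 sense partners, and 896 and 857 genes. TPM without mitochondrial genes gave 8 members lower, 18 and 14 sense partners, and 880 and 820 genes. With no filter on low values the counts were 3 and 0, 4 and 0, 132 and 107, and at an adjusted p of 0.01 they were 1 and 0, 2 and 0, 73 and 33. With members of at least 5 TPM, 6 and 1 sense partners passed. Without library 3 of both groups, 5 and 6 members, 9 and 12 sense partners, and 507 and 705 genes passed. Pairs whose changes differed numbered 2 among members, and 1 with the block, with members of at least 5 TPM, with pairs free of shared exonic bases or without library 3 of both groups, and 0 at an adjusted p of 0.01. Among all pairs there were 4, against 2 with the block or without library 3 of both groups and 1 at an adjusted p of 0.01.

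Leaving out 1 library gave 1 to 4 members higher and 0 to 4 lower, 1 to 7 sense partners higher and 0 to 4 lower, 61 to 248 genes higher and 24 to 362 lower, 0 to 2 member pairs and 1 to 3 pairs in all. Signs turned for 11 named rows and 3 pairs, none of them called. In these fits the change ran from −0.044 to 0.158 for B3GALT5-AS1, −0.101 to 0.060 for CFAP58, −0.43 to 0.194 for FUT8-AS1, −0.243 to 0.010 for GATA2-AS1, −0.037 to 0.155 for H1FX-AS1, −0.038 to 0.055 for ID2-AS1, −0.222 to 0.068 for LRRC75A-AS1, −0.117 to 0.122 for MMP24-AS1, −0.134 to 0.154 for OIP5-AS1, −0.131 to 0.110 for TRAF3IP2-AS1 and −0.3 to 0.009 for USP46. The pair difference ran from −0.22 to 0.094 for GDNF, −0.005 to 0.059 for SEMA6A and −0.050 to 0.095 for TBX5. Without library 3 of both groups the values were 0.045 for MMP24-AS1, −0.037 for ID2-AS1, 0.020 for TRAF3IP2-AS1, −0.032 for H1FX-AS1 and 0.007 for the GDNF pair. CFAP58 also turned under quantile normalization (0.019), median-ratio scaling (0.008) and TPM without mitochondrial genes (0.011), and the SERTAD4 pair with a pseudocount of 0.1 (0.073). Without DE library 3 the median of all genes was −0.102. The cause of these shifts was not tested. In all, 786 values of single genes kept direction and side of the threshold, 97 lost the call, 50 gained one and 33 changed sign.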

Other observations

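Other noncoding rows were counted the same way, by symbol. Of 149 tested LINC rows 6 rose and 3 fell, or 6.04% beside 3.27% of all genes, with a median change of −0.02. LINC00678 rose most, with 134, 141 and 122 TPM in KD libraries, against 22.8, 24.2 and 21.5 TPM in DE libraries (log2 change 2.48 ± 0.10 SE, limma adjusted p = 0.000438). LINC01194 stood at 34.8, 34.4 and 24.8 TPM in KD libraries, against 13.9, 15.7 and 10.3 TPM in DE libraries (1.18, limma adjusted p = 0.023), and LINC01108 at 50.5, 43.2 and 36.6 TPM in KD libraries, against 27, 24.8 and 18.8 TPM in DE libraries (0.86, limma adjusted p = 0.0452). LINC00261, which lies near FOXA2, fell, with 21.2, 16.9 and 17.7 TPM in KD libraries, against 38.5, 41.2 and 33.5 TPM in DE libraries (−0.98, limma adjusted p = 0.0131). LINC01612 fell to 21.2, 17.4 and 11.1 TPM in KD libraries, against 44.4, 43.8 and 33.3 TPM in DE libraries (−1.28, limma adjusted p = 0.0347). LINC00428 (1.23), LINC00599 (1.00) and LINC01503 (0.80) were the other rows that rose, and LINC00479 (−1.03) the other that fell.

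Of 24 tested rows ending in -AS2 or a higher number, TSPEAR-AS2 fell (2.58, 3.35 and 2.94 TPM in KD libraries, against 6.19, 6.13 and 4.81 TPM in DE libraries, limma adjusted p = 0.0477), and TSPEAR-AS1, named after the same gene, had a change of −0.80. The 1 call is 4.17% of the 24, beside 3.27% of all genes. None of 108 tested -AS1 rows under 2 TPM passed the limma threshold, and with the block 1 passed as lower, beside 6.62% of all genes. None of 18 tested SNHG rows, hosts of small nucleolar RNAs, passed, beside 3.27% of all genes. With the block 3 of the 18 passed as higher, beside 5.88% of all genes. Among 19 tested intronic -IT rows, AGBL5-IT1 stood at 1.57, 1.81 and 1.1 TPM in KD libraries and was listed at 0 in all DE libraries. It was the 1 call among these rows, or 5.26% beside 3.27% of all genes. It entered the tests through its KD libraries alone, so its passing the threshold supports no difference.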
